A study of Mus musculus with 9 samples.

Results

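Immediate early genes are transcribed within minutes of a stimulus from factors that the cell already holds, and feedback genes of the same wave switch the response off again. The set examined here has 10 genes, chosen by symbol to gauge how far each neutrophil preparation had been activated or disturbed by handling: Fos, Fosb, Jun, Junb, Jund, Egr1, Ier2, Dusp1, Zfp36 and Btg2. Of these, 8 were listed among the 7197 genes of the deposited table of normalized counts, and all 8 passed the filter on low values, a mean of at least 10 over all libraries. Fosb and Egr1 were not listed and are not analysed here.

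The Fos and Jun families pair through leucine zippers to form the transcription factor AP-1, which binds DNA as Fos-Jun or Jun-Jun dimers. MAP kinases, serum response factor and CREB drive their transcription, and Dusp1, a nuclear phosphatase, removes phosphate from MAP kinases in return. Zfp36 (tristetraprolin) binds AU-rich elements of cytokine and immediate early mRNAs and brings in the deadenylases that destroy them, and Btg2 also acts through the CCR4-NOT deadenylase. In neutrophils these transcripts respond to chemoattractants, cytokines and adhesion, and are known to climb while tissue is being dissociated and sorted.

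The 9 libraries were made from CD45+ CD11b+ Ly6G+ cells sorted from the bone marrow of mice aged 2 months, 5 of genotype Rragc+/+ and 4 of genotype RragcS74N/+. RragcS74N/+ mice carry, in all their cells, 1 endogenous allele edited to encode an active form of RagC, the GTPase that relays nutrient sufficiency to mTORC1, and the other allele is wild type. The labels give cell type, genotype and age alone, so p-values measure the spread between these libraries. Libraries are 3′-end libraries, in which reads come from the end of the transcript, and a normalized count is a gene's reads divided by 1 size factor per library.

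The recovered reads over listed genes ran from 1214295 to 1973957 per library, and the 16 pairs of libraries of 1 genotype differed by more than sampling noise. Rragc+/+ replicate 2 had the fewest reads and the largest excess of GC-rich transcripts, so values are also given without it where they moved most. Rragc itself was at 71.0 ± 10.3 normalized counts in wild type (SD, n = 5) against 65.8 ± 9.52 in RragcS74N/+ (SD, n = 4), and a gene-level count cannot tell the edited allele from the other. All 3 genes of the sort were present in every library, with Ly6g between 2036 and 4066, Itgam (CD11b) between 903 and 1315 and Ptprc (CD45) between 1189 and 1925 normalized counts. Of 5 erythroid markers, 5 were listed, and their summed level was 1083 to 5506 normalized counts in Rragc+/+ and 369 to 2092 in RragcS74N/+, a difference of -1.59 on the log2 scale (exact permutation test, two-sided, unadjusted p = 0.0476). Listed monocyte and macrophage markers, 4 of 6, summed to 2349 to 3577 and 2368 to 4146, and 0 of 5 T and NK cell and 0 of 4 platelet markers were listed. The erythroid p-value was not adjusted for the other marker sums put to the same test. The exact permutation p was 0.183 for eosinophil and basophil markers (3 of 5 listed, log2 difference 0.82). It was 0.357 for B cell markers, of which 1 of 5 was listed, and 0.937 for monocyte and macrophage markers. It was 0.706 for neutrophil, 0.952 for immature neutrophil and 0.929 for cell cycle markers. The part of other cells in the values below was not tested.

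Of the 8 listed genes, 7 were matched in the table of RefSeq promoters used here (mouse assembly GRCm38.p6), Ier2 being the other, and the 250 bases before the gene start are shown for 4 of them. Fos and Jun are shown because, after Jund, their levels varied most between libraries. Dusp1 and Btg2 are shown because they hold the full cAMP response element, the CREB site TGACGTCA, and they were chosen after this was seen. Capitals mark matches, on either strand, to that element or its core TGACG and to the TATA box TATAAA. The windows lie at chr12:85473640-85473889 (+) for Fos, chr4:95052223-95052472 (-) for Jun, chr17:26508473-26508722 (-) for Dusp1 and chr1:134079156-134079405 (-) for Btg2, and each runs 5′ to 3′ toward its gene.
Fos: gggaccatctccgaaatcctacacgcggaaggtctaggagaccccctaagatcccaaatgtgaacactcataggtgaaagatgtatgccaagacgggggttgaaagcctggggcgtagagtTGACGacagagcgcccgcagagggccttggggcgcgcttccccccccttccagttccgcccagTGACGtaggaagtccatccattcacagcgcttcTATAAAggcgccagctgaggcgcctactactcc
Jun: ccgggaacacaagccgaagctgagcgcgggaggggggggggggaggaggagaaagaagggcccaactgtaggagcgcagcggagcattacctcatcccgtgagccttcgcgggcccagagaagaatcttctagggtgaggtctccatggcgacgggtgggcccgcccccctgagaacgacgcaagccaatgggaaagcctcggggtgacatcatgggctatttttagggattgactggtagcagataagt
Dusp1: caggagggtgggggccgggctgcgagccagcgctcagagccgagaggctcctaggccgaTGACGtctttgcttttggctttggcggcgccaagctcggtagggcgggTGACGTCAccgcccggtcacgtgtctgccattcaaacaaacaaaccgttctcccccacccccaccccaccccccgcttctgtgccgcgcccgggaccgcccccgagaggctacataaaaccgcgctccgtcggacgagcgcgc
Btg2: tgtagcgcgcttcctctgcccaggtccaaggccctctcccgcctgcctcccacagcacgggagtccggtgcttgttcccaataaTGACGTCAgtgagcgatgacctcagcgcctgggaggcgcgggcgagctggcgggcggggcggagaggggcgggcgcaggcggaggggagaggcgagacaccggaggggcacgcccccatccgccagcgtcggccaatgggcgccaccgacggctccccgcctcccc

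The full element began 143 bases before the start of Dusp1 and 166 bases before that of Btg2, and it occurs in 1.88% of 27025 mouse promoter windows that run from 250 bases before the start to 50 after it. The core TGACG, which the full element holds on both strands, occurs in 21.0% of windows. Fos held the core at -129 and -66 and a TATA box at -33, a motif found in 14.2% of windows. Dusp1 had a further core at -191, and Junb had 1 at -106 and a TATA box at position 0. Zfp36 held a CArG box, the core of the serum response element, at -58, against 1.57% of all windows. The Jun window held no exact match to these motifs or to the AP-1 motifs TGACTCA and TGAGTCA, which are in 5.17% of windows. Variant letters, such as tgacatca in the Jun window, and sites outside the windows were not searched for. The RefSeq start of Jund lies 1210 bases from the nearest GENCODE transcript start, so its window is not shown. That distance is 35 bases for Btg2, 30 for Junb and 27 for Zfp36, whose positions are given from the RefSeq start. A match is a run of letters and was not read as an occupied site.

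Whether these transcripts differed between genotypes was asked first of the whole set. None of the 8 genes differed at an adjusted p-value under 0.05 (limma, Benjamini-Hochberg over 6673 genes), and the share called among all tested genes was 0%. Without adjustment, 1 gene, Jund, had a p-value under 0.05 and lower values in RragcS74N/+. Among all tested genes the unadjusted share was 5.81% in either direction, 3.81% lower and 2.01% higher in RragcS74N/+. On the log2(value + 1) scale, 2 of the genes were above 0 and 6 below in RragcS74N/+ relative to Rragc+/+, where 53.4% of all tested genes were above 0. The median log2 change of the set was -0.09, and that of all tested genes was 0.024. For 0 of the 8 genes did the genotypes fail to overlap, against 1.69% of tested genes. Without Rragc+/+ replicate 2 the set again had 2 genes above 0 and a median of -0.09, and 0 genes were past the unadjusted threshold. That last count was also 0 without Rragc+/+ replicate 3 and without RragcS74N/+ replicate 1, 3 or 4. In such bulk libraries of sorted cells, fewer cells of a type and less RNA per cell cannot be told apart.

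**Figure D1:**
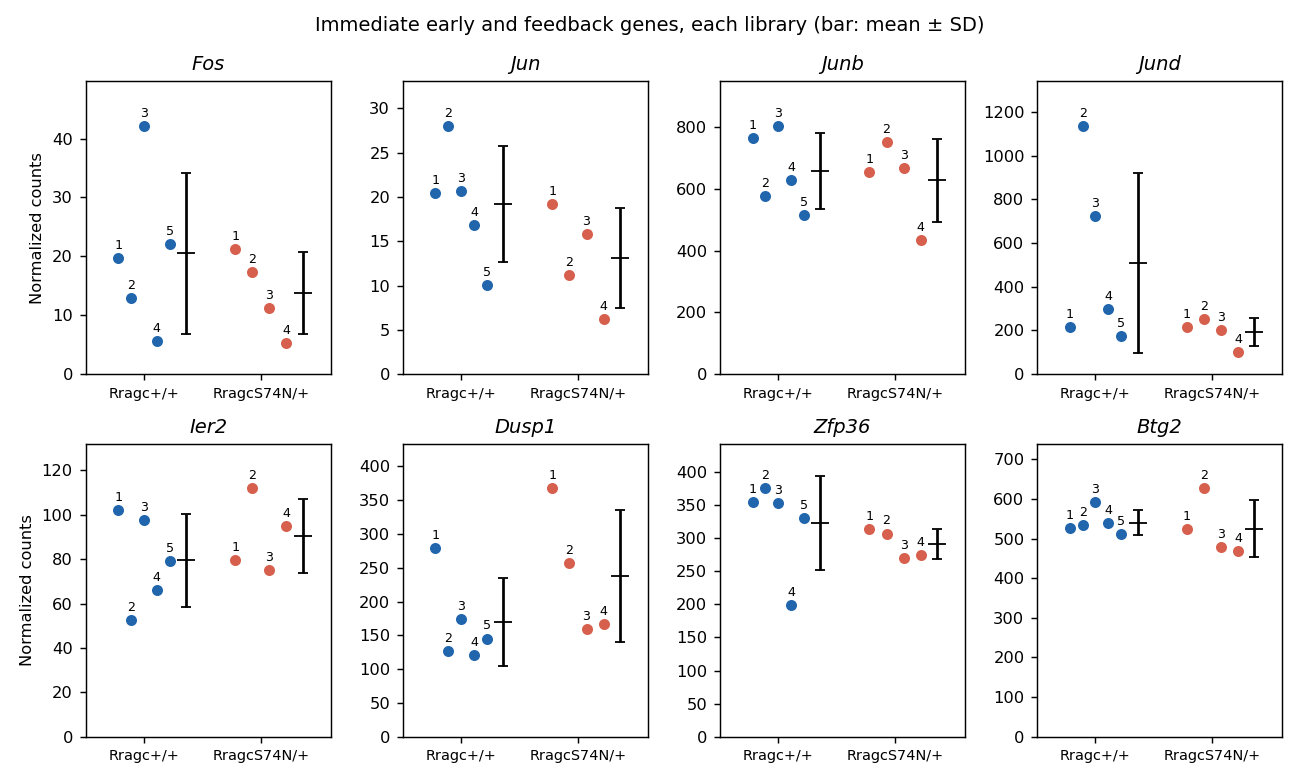
Normalized counts (vertical axes, each from 0) of the 8 listed genes in every library, blue for Rragc+/+ and red for RragcS74N/+, with replicate numbers above the points and the mean ± SD at the right of each group. The genotypes overlap in all 8 panels, and Jund in Rragc+/+ replicates 2 and 3, at 1137 and 723, stands above every other library.

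Among the AP-1 subunits, Fos, the partner that cannot form dimers with itself, was scarce. It measured 19.8, 12.9, 42.2, 5.63 and 22.1 normalized counts in Rragc+/+ replicates 1 to 5 and 21.2, 17.3, 11.3 and 5.23 in RragcS74N/+ replicates 1 to 4. These values rest on 5 to 45 reads. The lowest library of each genotype lay close to the other, and Rragc+/+ replicate 3 stood well above the rest. The means were 20.5 ± 13.7 (SD, n = 5) and 13.8 ± 7.0 (SD, n = 4), with a log2 change of -0.44 (SE 0.49; limma, adjusted p = 0.787).

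Jun, whose product pairs with Fos or with itself, was equally near the floor of detection, at 6 to 31 reads per library. It measured 20.4, 28.0, 20.6, 16.9 and 10.03 normalized counts in Rragc+/+ and 19.2, 11.2, 15.8 and 6.27 in RragcS74N/+. The genotypes overlapped, with 1 RragcS74N/+ library below the Rragc+/+ range and 3 Rragc+/+ libraries above the RragcS74N/+ range. The means were 19.2 ± 6.54 (SD, n = 5) and 13.1 ± 5.63 (SD, n = 4), with a log2 change of -0.55 (SE 0.35; limma, adjusted p = 0.713).

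Junb, a Jun protein that also restrains Jun itself, was measured with far more reads. Its normalized counts were 765, 578, 805, 628 and 514 in Rragc+/+ and 656, 751, 667 and 436 in RragcS74N/+. All but the lowest RragcS74N/+ library lay inside the Rragc+/+ range. The means of 658 ± 124 (SD, n = 5) and 628 ± 135 (SD, n = 4) gave a log2 change of -0.08 (SE 0.20; limma, adjusted p = 0.906). Its direction turned, to 0.09, without RragcS74N/+ replicate 4, and to 0.15 when each library's trend on GC content was removed.

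Jund, the member that most cells transcribe constitutively and that slows rather than drives division in fibroblasts, varied most. It measured 215, 1137, 723, 297 and 175 normalized counts in Rragc+/+ and 214, 252, 203 and 102 in RragcS74N/+. Rragc+/+ replicates 2 and 3 were high, the other 3 Rragc+/+ libraries lay near the RragcS74N/+ values, and the highest library was 11.1 times the lowest. The means were 509 ± 413 (SD, n = 5) and 193 ± 63.9 (SD, n = 4). The log2 change was -1.09 (SE 0.47; limma, unadjusted p = 0.0374, adjusted p = 0.713), and the exact permutation test of genotype gave p = 0.167 (two-sided). Without Rragc+/+ replicate 2 the log2 change was -0.71 (limma, unadjusted p = 0.0816).

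Ier2, a nuclear protein induced with Fos and Jun, measured 102, 52.6, 97.5, 65.9 and 79.2 normalized counts in Rragc+/+ and 79.6, 112, 75.3 and 95.1 in RragcS74N/+. The RragcS74N/+ libraries covered the upper part of the Rragc+/+ range, and 1 of them exceeded it. The means of 79.5 ± 20.9 (SD, n = 5) and 90.5 ± 16.6 (SD, n = 4) gave a log2 change of 0.21 (SE 0.22; limma, adjusted p = 0.779), which was 0.073 without Rragc+/+ replicate 2.

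The feedback genes were the phosphatase Dusp1, the mRNA decay factor Zfp36 and the antiproliferative gene Btg2. Dusp1 measured 279, 127, 174, 121 and 145 normalized counts in Rragc+/+ and 367, 257, 159 and 166 in RragcS74N/+. The library at 279 was the highest of Rragc+/+ and that at 367 the highest of RragcS74N/+, and replicate numbers do not pair libraries between genotypes. RragcS74N/+ replicates 2 to 4 lay within the Rragc+/+ range. The means of Dusp1 were 170 ± 64.7 (SD, n = 5) and 237 ± 97.5 (SD, n = 4), a log2 change of 0.47 (SE 0.29; limma, adjusted p = 0.713), or 0.23 without RragcS74N/+ replicate 1.

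Zfp36 measured 355, 375, 352, 199 and 330 normalized counts in Rragc+/+ and 314, 307, 270 and 275 in RragcS74N/+. Rragc+/+ replicate 4 was the lowest of all 9 libraries, and the other 4 of that genotype were above every RragcS74N/+ library. The means were 322 ± 70.9 (SD, n = 5) and 291 ± 22.3 (SD, n = 4), with a log2 change of -0.11 (SE 0.20; limma, adjusted p = 0.861).

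Btg2 was the steadiest gene of the set. It measured 526, 533, 592, 539 and 510 normalized counts in Rragc+/+ and 523, 626, 480 and 468 in RragcS74N/+. The highest and the lowest values were both in RragcS74N/+ libraries. The means of 540 ± 31.2 (SD, n = 5) and 524 ± 71.9 (SD, n = 4) gave a log2 change of -0.05 (SE 0.15; limma, adjusted p = 0.922).

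The genes differed in their spread between libraries, a measure that takes in any difference between genotypes. Over the 9 libraries the SD of log2(value + 1) was 1.06 for Jund and 0.89 for Fos, then 0.61 for Jun and 0.55 for Dusp1. It was 0.34 for Ier2, 0.29 for Junb, 0.28 for Zfp36 and 0.13 for Btg2, and its median over all tested genes was 0.36. The SD that counting error alone gives at these read numbers was 0.071 for Jund, 0.31 for Fos, 0.32 for Jun and 0.059 for Btg2, below the observed SD in all 4. Among genes with a mean within 2-fold of its own, Jund varied more than 99.2% of 1037 genes and Fos more than 96.0% of 2452. The same share was 90.4% for Dusp1, 49.3% for Junb and 4.47% for Btg2. The order of the AP-1 subunits by spread was Jund, Fos, Jun and Junb, while the feedback genes ran from Dusp1, among the more variable genes, to Btg2, among the least.

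**Figure D2:**
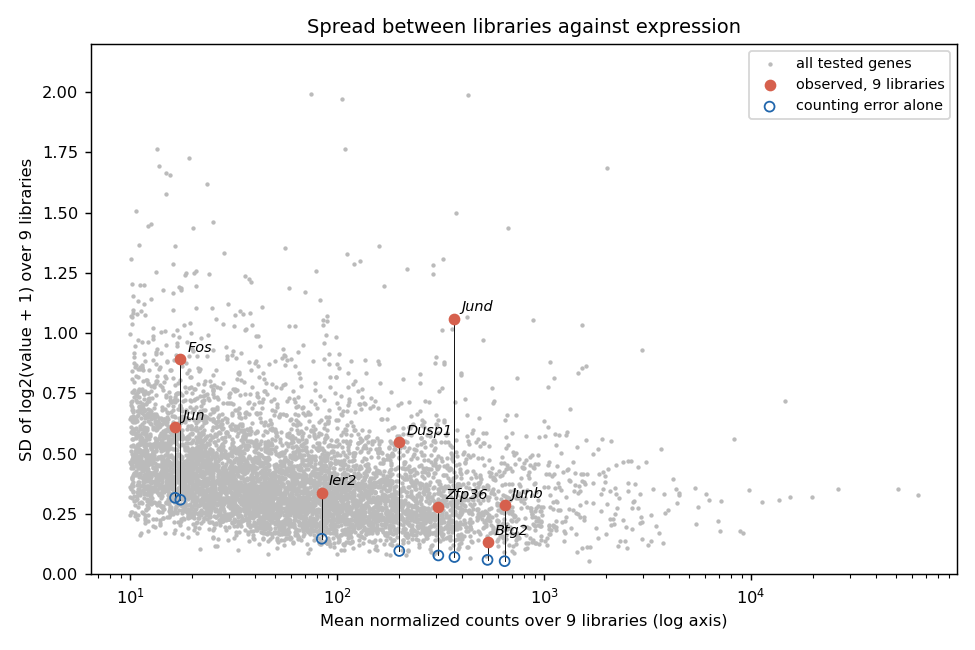
SD of log2(value + 1) over 9 libraries (vertical axis) against the mean normalized count (horizontal log axis), with all tested genes in grey except 1 that lies above the axis, the 8 genes in red and the SD from counting error alone as open blue circles. Jund, at 1.06, and Fos, at 0.89, lie near the top of the genes of their level, and Btg2, at 0.13, lies near the bottom.

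How far the genes moved together across libraries was examined by scaling each gene to its own mean and SD of log2(value + 1). The mean over the 8 genes was highest in Rragc+/+ replicate 3, at 0.91, where 7 genes were above their own mean. It was lowest in RragcS74N/+ replicate 4, at -1.03, where 1 gene, Ier2, was above its mean and 5 genes (Fos, Jun, Junb, Jund and Btg2) had their lowest value of all libraries. The other Rragc+/+ libraries were at 0.54, 0.11, -0.65 and -0.35 (replicates 1, 2, 4 and 5), and the other RragcS74N/+ libraries at 0.32, 0.53 and -0.38 (replicates 1 to 3). High and low libraries occurred in both genotypes. Rragc+/+ replicate 2 did not behave as 1 block, since it held the highest Jun, Jund and Zfp36 and the lowest Ier2.

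**Figure D3:**
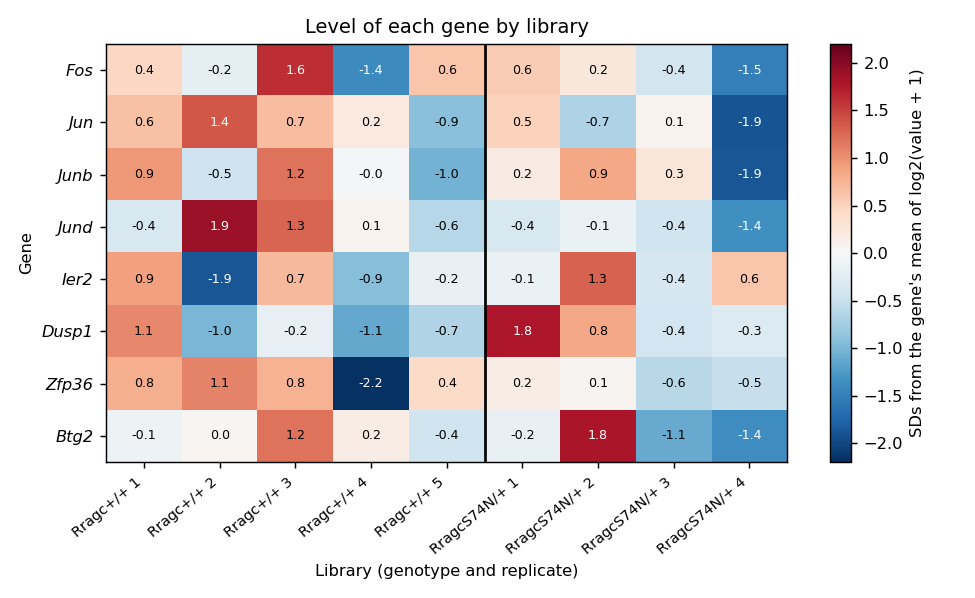
Each gene's level (rows) in each library (columns, Rragc+/+ left of the line and RragcS74N/+ right), in SDs from the gene's own mean of log2(value + 1), with red above and blue below. Rragc+/+ replicate 3 is red for 7 of 8 genes, RragcS74N/+ replicate 4 is blue for 7 of 8, and Rragc+/+ replicate 2 holds both the highest Jund and the lowest Ier2.

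Over the 28 pairs of genes, Pearson's r across the 9 libraries had a median of 0.353 and was above 0 in 25 pairs. The median r over all pairs of tested genes was -0.0026, with 49.8% above 0. Leaving out 1 library at a time gave medians for the set from 0.283, without Rragc+/+ replicate 3, to 0.444, without Rragc+/+ replicate 2. The pairs above 0 then numbered from 22, without RragcS74N/+ replicate 4, to 26, without Rragc+/+ replicate 2. With each library's GC trend removed, the median was 0.367 and 21 pairs were above 0. The highest r was 0.79 for Jun and Jund (exact permutation test, two-sided, p = 0.0125, adjusted p = 0.351 over 28 pairs), with a Spearman rho of 0.82 (exact permutation p = 0.0108, adjusted p = 0.151). This r was 0.46 once the 2 libraries farthest from the median of Jun were left out, so it rested in part on them. Fos and Zfp36, a transcript and a protein known to bind AU-rich mRNAs such as it, had an r of 0.73 (exact permutation p = 0.0262, adjusted p = 0.361) and a rho of 0.60 (exact permutation p = 0.0968, adjusted p = 0.493), and r was 0.39 without 2 libraries. The highest rho was 0.83, for Jund and Btg2 (exact permutation p = 0.00827, adjusted p = 0.151), whose r was 0.51. Ier2 and Dusp1 had a rho of 0.78 (exact permutation p = 0.0172, adjusted p = 0.161). Junb and Btg2 had an r of 0.69 (exact permutation p = 0.0387, adjusted p = 0.361). The lowest r was -0.47, for Jund and Ier2. No pair passed an adjusted p-value of 0.05.

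Jund has the most GC-rich 3′ end of the 8 genes, and libraries differed in their balance of GC-rich and GC-poor transcripts. In the last 500 nucleotides of the transcript (GENCODE, assembly GRCm38) the GC content was 56.2% for Jund, 55.2% for Ier2 and 53.6% for Junb, against a median of 43% over tested genes and 32.6% for Fos. The balance was taken, for each library, as the median log2 deviation of the decile of genes richest in GC minus that of the poorest decile. It was 0.083, 0.76, 0.30, 0.19 and -0.26 in Rragc+/+ and -0.58, -0.15, -0.013 and -0.31 in RragcS74N/+, with Rragc+/+ replicate 2 the highest.

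The relation of the genes to this balance was not planned in advance. Jund followed this balance, with r = 0.84 over 9 libraries (exact permutation test, two-sided, p = 0.00408, adjusted p = 0.0326 over 8 genes) and rho = 0.83 (exact permutation p = 0.00827, adjusted p = 0.0661). The adjustment covers these 8 genes alone, and the share of all tested genes that follow the balance as closely is not given. Without the 2 libraries farthest from the median of the balance, r was 0.85 for Jund. Ier2 and Junb, with 3′ ends nearly as GC-rich, had r of -0.51 (exact permutation p = 0.166, adjusted p = 0.332) and 0.22 (exact permutation p = 0.563, adjusted p = 0.658), which became -0.17 and 0.74 without the same 2 libraries. Jun, at 42% GC, had an r of 0.63 (exact permutation p = 0.0698, adjusted p = 0.265) and a rho of 0.72 (exact permutation p = 0.0369, adjusted p = 0.147), and r was 0.91 without the same 2 libraries. The balance itself was below 0 in all 4 RragcS74N/+ libraries and above 0 in 4 of 5 Rragc+/+ libraries. With both measures centred within genotype, r was 0.76 for Jund (exact permutation within genotypes, p = 0.0295, adjusted p = 0.236 over 8 genes) and 0.48 for Jun (exact permutation p = 0.204, adjusted p = 0.690), so the adjusted call for Jund was not kept. With each library's GC trend removed, the log2 change of Jund was -0.80 (SE 0.40; limma, unadjusted p = 0.0633). It was then 0.48 for Ier2 (SE 0.26; limma, unadjusted p = 0.0949) and 0.37 for Dusp1 (SE 0.27; limma, unadjusted p = 0.198). The removal lowered the SD over 9 libraries from 1.06 to 0.84 for Jund and raised it from 0.34 to 0.50 for Ier2.

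**Figure D4:**
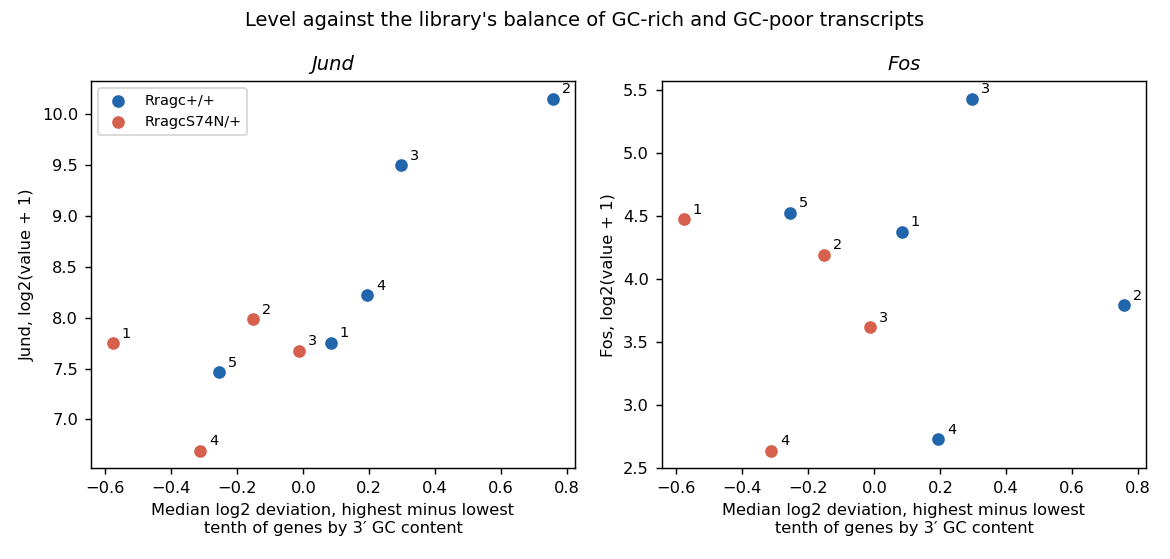
Level of Jund (left) and Fos (right) as log2(value + 1) against each library's GC balance, the median log2 deviation of the decile of genes with the highest 3′ GC content minus that of the decile with the lowest, in blue for Rragc+/+ and red for RragcS74N/+ with replicate numbers. Jund climbs with the balance (r = 0.84), and Fos shows no such order (r = 0.016).

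The wider pathway was read from 7 lists of 96 genes in all, of which 63 were listed and 55 tested. None differed at an adjusted p-value under 0.05, and 3 had an unadjusted p-value under 0.05 (limma), all 3 lower in RragcS74N/+. That count is near the share among all tested genes, 5.81% in either direction and 3.81% lower. Of the 55, 32 were above 0 and 23 below, beside 53.4% above 0 of all tested genes, and the median log2 change was 0.046.

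Of 8 further AP-1 genes, 5 were tested, with 0 past the unadjusted threshold and a median of -0.10. Fosl2, which encodes the Fos relative Fra-2, measured 351 ± 76.9 (SD, n = 5) and 397 ± 25.2 (SD, n = 4) normalized counts, and Jdp2, a repressor that occupies AP-1 sites, measured 243 ± 101 and 165 ± 31.4. Of 18 other immediate early genes, 7 were tested, with a median of -0.020. Klf2, a transcription factor of quiescence, was at 908 ± 110 and 921 ± 25.8, and Klf6, a relative of it, at 604 ± 91.0 and 598 ± 96.8. Ier3, an anti-apoptotic stress-response gene, was the one gene of this list past the unadjusted threshold. It measured 335, 568, 386, 476 and 328 normalized counts in Rragc+/+ and 259, 320, 327 and 291 in RragcS74N/+. These ranges did not overlap, the nearest libraries being at 328 and 327, and 1.69% of all tested genes separate the genotypes in this way. The log2 change of Ier3 was -0.46 (SE 0.19; limma, unadjusted p = 0.0301, adjusted p = 0.713), or -0.34 without Rragc+/+ replicate 2 (limma, unadjusted p = 0.0667).

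Of the feedback regulators, 2 of 10 MAP kinase phosphatase and Sprouty genes were tested. Dusp6, the cytoplasmic phosphatase of ERK, measured 418 ± 230 in Rragc+/+ and 494 ± 122 in RragcS74N/+, with a log2 change of 0.35 (SE 0.32; limma, adjusted p = 0.749). Among AU-rich element decay factors and BTG genes, 8 of 9 were tested, 7 were above 0 and 1 below, and the median was 0.28, with 0 past the unadjusted threshold. Zfp36l2, a relative of Zfp36, was at 486 ± 279 and 653 ± 54.9, a log2 change of 0.65 (SE 0.38; limma, adjusted p = 0.713), and Btg1, a relative of Btg2, at 1490 ± 316 and 1505 ± 88.3. Upstream, 18 of 23 kinases and serum response factors were tested, with 0 past the unadjusted threshold and a median of 0.15. Mapk3, which encodes ERK1, was at 417 ± 62.3 and 366 ± 46.5, and Creb1 at 187 ± 39.8 and 220 ± 47.2. Among early inflammatory transcripts with AU-rich elements, which Zfp36 and its relatives help to clear, 6 of 14 were tested, with 0 past the unadjusted threshold and a median of -0.0048. Il1b was at 1203 ± 138 and 1254 ± 247, and Nfkbia, the inhibitor of NF-κB, at 1033 ± 98.9 and 994 ± 101.

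Of 14 heat shock and handling stress genes, 9 were tested, 4 above 0 and 5 below, with a median of -0.16. Of these, 2 were past the unadjusted threshold, both lower, where 3.81% of all tested genes were called lower. A count of 2 in so short a list is given as a description. Ddit3, which encodes the endoplasmic reticulum stress factor CHOP, measured 70.5, 256, 136, 110 and 104 normalized counts in Rragc+/+ and 58.3, 67.1, 70.8 and 79.4 in RragcS74N/+. Rragc+/+ replicate 1 lay within the RragcS74N/+ range and the other 4 above it, for a log2 change of -0.84 (SE 0.29; limma, unadjusted p = 0.0124, adjusted p = 0.713). Gadd45b, a growth arrest gene of the stress response, measured 69.8, 116, 79.7, 64.3 and 44.1 in Rragc+/+ and 43.1, 44.7, 48.2 and 40.8 in RragcS74N/+. Its log2 change was -0.68 (SE 0.24; limma, unadjusted p = 0.0133, adjusted p = 0.713), or -0.32 with the GC trend removed (limma, unadjusted p = 0.0740). Rragc+/+ replicate 2 was the highest library for Ier3, Ddit3 and Gadd45b alike, as it was for Jund. Without it the log2 change was -0.57 for Ddit3 (limma, unadjusted p = 0.0159, adjusted p = 0.994). For Gadd45b it was then -0.51 (limma, unadjusted p = 0.0266, adjusted p = 0.994). With the GC trend removed, the log2 change of Ddit3 was -0.85 (limma, unadjusted p = 0.0116, adjusted p = 0.864). That of Ier3 was then -0.35 (limma, unadjusted p = 0.0485, adjusted p = 0.864). Hsp90ab1, a constitutive chaperone, was at 498 ± 185 and 347 ± 70.9 (limma, adjusted p = 0.713). Gadd45a, a relative of Gadd45b, went the other way, at 327 ± 138 and 392 ± 34.4. Its log2 change was 0.36 (SE 0.27; limma, adjusted p = 0.729).

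**Figure D5:**
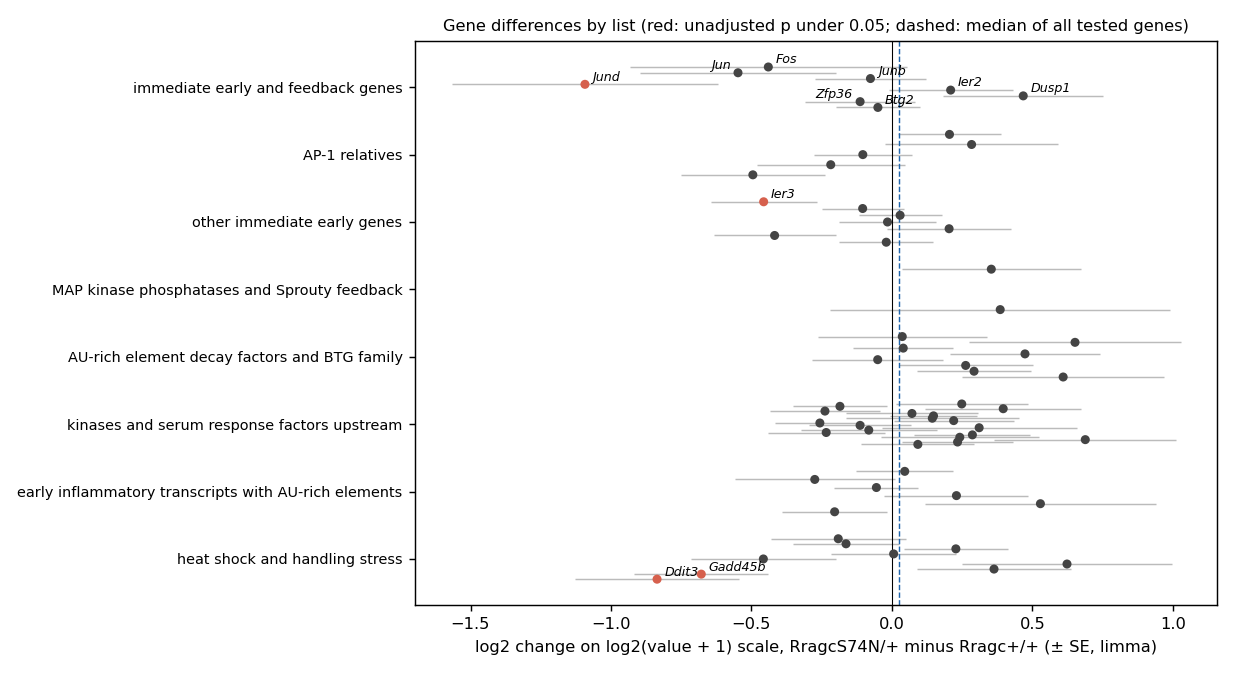
Log2 change between genotypes (horizontal axis, RragcS74N/+ minus Rragc+/+, on the log2(value + 1) scale, with the SE from limma as bars) for each tested gene of the set and of 7 related lists, red where the unadjusted p-value was under 0.05 and with a dashed line at the median of all tested genes, 0.024. Jund, Ier3, Ddit3 and Gadd45b are the red points, all 4 to the left of 0, and none passed the adjusted threshold.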

How the data were processed

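Bone marrow neutrophils were profiled by 3′-end RNA sequencing with oligo-dT priming and molecular identifiers. Alignment to GRCm39 was done by the authors with TopHat2 (version 2.0.10, per the submitters' processing notes), who counted reads over genes, strand-specifically, with HTSeq (version 0.6.1) and divided the counts by 1 size factor per library. The deposited values are therefore a signal, a normalized count. The sources used here do not give the filter behind the gene list, nor whether identifiers were used to remove duplicate reads, without which counting error understates the noise.

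Dividing each column by the value of 1 read gave whole numbers throughout (tolerance 0.01), the recovered reads, whose totals cover listed genes alone. Genotypes came from the labels for all 9 columns. The study describes more RragcS74N/+ mice than the 4 libraries analysed here.

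Values were transformed as log2(value + 1), on which fold changes of low genes are understated. limma (version 3.58.1 in R 4.3.3) was fitted to all genes whose mean was 10 or more, with genotype in the model, trended empirical Bayes and Benjamini-Hochberg adjustment. Single values and correlations were tested by exact permutation. Alternatives were the pseudocount, filter, scaling, moderation, array weights, edgeR (version 4.0.16) and DESeq2 (version 1.42.0) on recovered reads, and removal of each library. The GC balance of the libraries and its correlations with the members were not part of the plan. A correction for each library's GC trend at 3′ ends, which covered 6556 of 6673 genes, and the genotype-centred correlations were added after the data were seen. The procedure was tested on simulated data.

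The members and lists were chosen with earlier results of these data known. Named are all members, the genes of each list with an unadjusted p-value under 0.05 and some of its 3 most abundant, and the genes most and least like the set's mean. Promoters came from RefSeq (GRCm38.p6) and 3′ ends from GENCODE M21, both of an assembly other than the authors'.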

Additional observations from a re-analysis of the deposited data

Results flagged for a closer look

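Single libraries lying apart within a genotype were looked for in 16 groups of values, 8 genes in 2 genotypes. Chance would give 0.8, and 1 was found. Zfp36 was low in Rragc+/+ replicate 4, at 199 normalized counts against 330 to 375 in the other 4 libraries of that genotype, a gap of 0.744 of the range where the limit for 5 libraries is 0.71. That library also had the lowest Dusp1, at 121, and a low Fos, at 5.63. Without it the log2 change of Zfp36 was -0.28 (limma, adjusted p = 0.815), against -0.11 with it (limma, adjusted p = 0.861). The genotypes do not overlap once it is left out, but it was left out for its value, so no test of that separation is given.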

How the results depend on the processing

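No paired analysis was possible because no label numbers the replicates. Under all 20 alternatives 0 genes, and so 0 members and 0 pathway genes, passed an adjusted p-value of 0.05 (limma, edgeR or DESeq2), and the smallest adjusted p-value of a member was 0.326. Of the log2 changes of the members, 154 kept their direction and 4 reversed: Junb to 0.0012 without Rragc+/+ replicate 3, to 0.089 without RragcS74N/+ replicate 4 and to 0.15 with the GC trend removed, and Btg2 to 0.0012 without RragcS74N/+ replicate 4. Members past the unadjusted threshold, 1 in the fit reported, numbered 0 without the trend in limma and 0 with the GC trend removed. With 1 library left out they numbered 0 without Rragc+/+ replicate 2 or 3 or RragcS74N/+ replicate 1, 3 or 4. They numbered 2 without Rragc+/+ replicate 1 or 5. Members above 0 numbered 2, and 2 to 4 with 1 library left out (4 without RragcS74N/+ replicate 4). Pathway genes at that unadjusted threshold numbered 3, then 7 with array weights, where the cause was not tested, and 2 to 11 with 1 library left out (11 without Rragc+/+ replicate 1). The median change of the members ran from -0.18 to -0.037. With 1 library left out, the log2 change ran from -0.80 to -0.076 for Fos, -0.75 to -0.26 for Jun, -0.17 to 0.089 for Junb, -1.38 to -0.71 for Jund, 0.073 to 0.31 for Ier2, 0.23 to 0.66 for Dusp1, -0.28 to -0.050 for Zfp36 and -0.14 to 0.0012 for Btg2. By edgeR and by DESeq2 on all libraries it was -1.39 for Jund (adjusted p = 0.683 and 0.737). Over all genes, 388 had an unadjusted p-value under 0.05, 191 under a minimum mean of 50 (which drops many genes, Fos and Jun among them), 769 with array weights, 254 with the GC trend removed, and 201 (without Rragc+/+ replicate 2) to 907 (without Rragc+/+ replicate 5) with 1 library left out. At 5 to 45 reads per library, differences in Fos and Jun of the size seen were within the spread between libraries.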

Other observations

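Over 3469 genes outside the set whose mean normalized count reached 50, those whose levels followed the mean of the 8 genes most closely over the 9 libraries were Pla2g7, the platelet-activating factor acetylhydrolase (Pearson's r = 0.92), Slc25a20, the mitochondrial carnitine carrier (0.90), Lilra6 (0.90), Bcl10, an adaptor of NF-κB signalling (0.89), Itgb2, the CD18 chain of the neutrophil integrins (0.88), and Pak1ip1 (0.87). These are the highest of many correlations over 9 libraries and are a description only. The most opposite were Pwp1 (-0.92), the mitochondrial ribosomal protein gene Mrpl51 (-0.87), the ATP synthase subunit gene Atp5o (-0.83) and Mdh1, malate dehydrogenase (-0.81). Pla2g7 was at 559 ± 67.6 normalized counts in wild type (SD, n = 5) against 537 ± 68.3 in RragcS74N/+ (SD, n = 4), and Itgb2 measured 1192 ± 192 and 1065 ± 147.

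Genes that followed Jund were listed after its values were seen. They are the extremes of correlations with 3469 genes over 9 libraries and are a description only. Jund itself followed the GC balance of the libraries (r = 0.84), and whether these genes share that trend was not tested. Dok3, an adaptor that restrains immune receptor signalling, had an r of 0.99 with Jund over the 9 libraries. Snx20, Ypel3 and Tfe3, a transcription factor of lysosomal genes that mTORC1 restrains, had 0.98 each, and Gm10524 and Crlf2 had 0.97 each. Dok3 was at 357 ± 147 normalized counts in wild type (SD, n = 5) against 226 ± 44.5 in RragcS74N/+ (SD, n = 4), a log2 change of -0.59 (limma, adjusted p = 0.713). Tfe3 measured 147 ± 66.8 and 98.2 ± 19.9. The most opposite genes were Pik3ap1 (-0.99), Lamtor3, a subunit of the Ragulator scaffold of the Rag GTPases (-0.98), Pank3 (-0.98) and Pnp (-0.96). Lamtor3 measured 78.8 ± 22.5 and 99.2 ± 17.3, a log2 change of 0.37 (limma, adjusted p = 0.713).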
